A study of Mus musculus with 6 samples.

Results

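Trp53, Wrap53 and Mdm2 were followed by the cleavage and polyadenylation sites along them in V6.5 cells, embryonic stem cells of a C57BL/6-129 mouse. The series holds 6 libraries of sequenced RNA 3′ ends in 3 groups of 2. Cells were untreated, given a scrambled antisense morpholino oligonucleotide (AMO; the scrambled controls), or given a U1-targeting AMO that blocks the small nuclear ribonucleoprotein U1. All were grown in the same standard culture, and the labels take the AMO conditions from an earlier publication without a dose or time. Each gene was represented by one strand of a window on the mm9 build, chr11:69393500-69407000 (plus) for Trp53, chr11:69374000-69394500 (minus) for Wrap53 and chr10:117124000-117149000 (minus) for Mdm2. Positions on the gene's strand at most 24 nt apart were joined into a cluster, here taken as one site. This gave 26 clusters for Trp53, 14 for Wrap53 and 71 for Mdm2, 111 of the 931826 clusters of the series.

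These 3 genes were chosen with their levels in all 3 groups already known, so the levels and shares below are descriptions and were not tested. The libraries held 15752080 to 62257923 reads, and U1 AMO replicate 1 was the shallowest. Untreated replicate 2, with 60473882 reads, listed the fewest distinct positions over the whole series, 500472. U1 AMO replicate 1 listed 683584 and scrambled replicate 2 listed 1039972. Read totals alone therefore do not tell how well a library could show weak sites. Levels are reads divided by the library total and multiplied by 1000000 (CPM). Per the read names in the files, the libraries of the AMO groups that carry one replicate number came from one sequencing run. Each untreated library came from another run, so treatment and run cannot be told apart against untreated cells. The files hold reads, not counts of molecular identifiers, and every interval given covers counting error only. In bulk libraries, more RNA per cell and more cells with the RNA cannot be told apart. Markers of embryonic stem cells were not analysed here, nor were exons and introns, for want of a gene annotation on mm9.

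The protein p53, encoded by Trp53, is a transcription factor that halts the cell cycle or starts cell death after DNA damage. Mdm2 is the ubiquitin ligase that marks p53 for degradation, and its gene is itself a p53 target, which closes a feedback loop. Wrap53 encodes a WD-repeat protein of Cajal bodies (TCAB1) that carries telomerase RNA to these bodies, and its gene lies head to head with Trp53. U1 recognises 5′ splice sites, and it is also known to keep nascent transcripts from being cleaved at poly(A) signals inside introns. Most mammalian sites carry the poly(A) signal AATAAA or ATTAAA a short way upstream of the cleaved position.

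The promoters of the head-to-head pair are shown because an annotated start of each gene lies in the same short stretch of DNA. They run from 250 bases before to 50 after a start annotated by RefSeq on GRCm38.p6, a later build than that of the files. The Trp53 window is chr11:69580109-69580408 (plus) and the Wrap53 window chr11:69580201-69580500 (minus), each written 5′ to 3′ on its own strand. Capitals mark the 208 bases that both windows hold, as reverse complements of each other.
Trp53: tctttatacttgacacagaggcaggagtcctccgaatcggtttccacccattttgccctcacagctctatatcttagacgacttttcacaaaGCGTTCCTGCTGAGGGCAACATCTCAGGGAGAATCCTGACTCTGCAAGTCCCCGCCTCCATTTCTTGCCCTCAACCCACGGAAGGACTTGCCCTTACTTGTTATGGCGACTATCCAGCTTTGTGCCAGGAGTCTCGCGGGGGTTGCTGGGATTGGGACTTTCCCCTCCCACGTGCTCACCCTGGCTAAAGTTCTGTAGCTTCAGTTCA
Wrap53: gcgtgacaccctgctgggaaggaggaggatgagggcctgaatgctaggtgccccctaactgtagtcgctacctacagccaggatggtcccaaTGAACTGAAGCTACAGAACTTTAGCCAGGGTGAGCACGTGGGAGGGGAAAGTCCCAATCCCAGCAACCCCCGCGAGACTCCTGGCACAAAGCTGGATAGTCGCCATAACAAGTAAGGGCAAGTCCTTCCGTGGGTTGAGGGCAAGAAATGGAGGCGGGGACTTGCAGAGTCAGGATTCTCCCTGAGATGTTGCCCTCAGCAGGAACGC
The annotated starts lay 109 nt apart and pointed away from each other. All 3 genes matched the RefSeq table, with 1 promoter for Trp53 and Mdm2 and 2 for Wrap53, whose starts were 1001 nt apart. None of the 4 promoters held the poly(A) signals AATAAA or ATTAAA, or the 5′ splice site letters searched, on either strand. The splice site letters searched were GGTAAG, beside GTAAGT, which overlaps it by 5 letters, and beside these GTGAGT. Shorter or other forms of a 5′ splice site were not searched, so such forms may be present. Of 32851 promoters of the same length, 19.63% held AATAAA, 13.91% ATTAAA, 9.67% GGTAAG, 7.65% GTAAGT and 13.73% GTGAGT.

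For each gene the full 3′ end was the cluster with the highest mean CPM without any AMO, together with every cluster up to 2000 nt upstream of it and any downstream in the window. Early sites were those farther upstream. The limit fell between clusters with 2 and 7 reads in the 6 libraries at Trp53 (2177 and 1918 nt upstream), and at Mdm2 the nearest early cluster, 2479 nt upstream, had 1 read. Just inside it, the Mdm2 cluster 1834 nt upstream had 1 read in scrambled replicate 1 and 2 and 21 reads in the U1 AMO libraries. Wrap53 had none between 5368 nt and its full 3′ end. The plot of clusters along each gene shows 3 different arrangements.

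**Figure D1:**
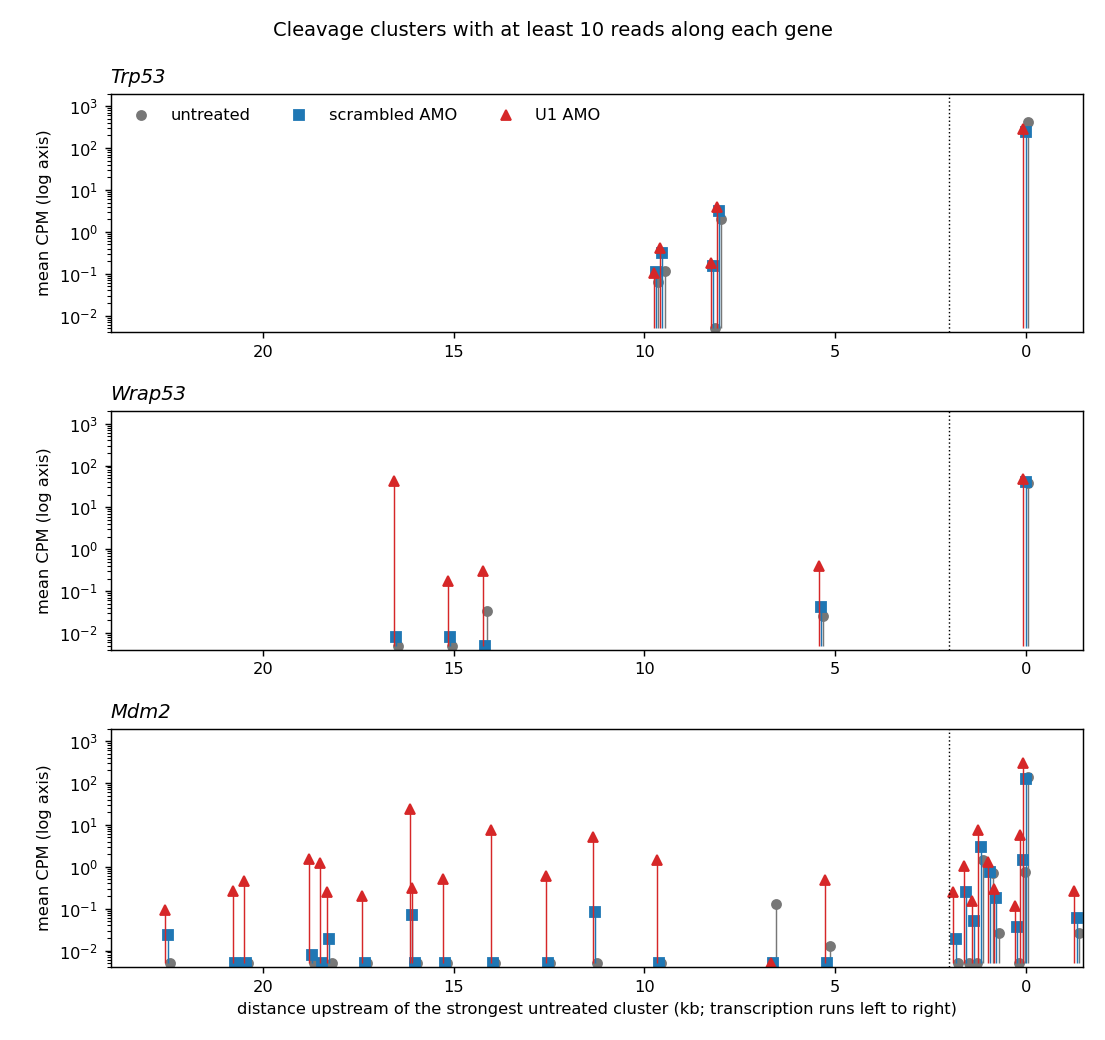
Mean CPM (log axis) of every cluster with at least 10 reads over the 6 libraries, against distance upstream of the strongest untreated cluster, for untreated, scrambled AMO and U1 AMO cells (n = 2 libraries each). Markers on the bottom edge stand for no reads, the dotted line is the 2000 nt limit, and the 3 markers of a cluster are shifted slightly sideways. Wrap53 has 1 tall early site under U1 AMO, Mdm2 has many, and at Trp53 the early sites stand at similar heights in the AMO groups.

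Under U1 AMO, a large part of Wrap53 RNA ended at a single early site. This site, chr11:69391758-69391782, lay 16514 nt upstream of the full 3′ end. It had 50.2 and 36.7 CPM in the U1 AMO libraries (replicates 1 and 2), 0 and 0.0161 in the scrambled controls, and no reads without any AMO. The read counts behind these levels were 791 and 2124 against 0 and 1. Both U1 AMO libraries were high, and the groups did not overlap. It took 97.7% and 97.5% of the early Wrap53 reads in the U1 AMO libraries. The deposited hexamer at its strongest position, 69391778, was AATAAA, 15 nt away. That position was the strongest in both U1 AMO libraries, with 26.2% and 27.5% of the site's reads, spread over 13 positions in each.

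The other early Wrap53 sites were weak. Next in level was chr11:69380629-69380638, 5368 nt upstream of the full 3′ end and also with AATAAA, with 0.254 and 0.552 CPM in the U1 AMO libraries. It had 0.0372 and 0.0482 CPM in the scrambled controls and 0.0519 and 0 without any AMO. The remaining 10 early sites had at most 20 reads each in the 6 libraries, and 3 of the 12 rested on a single read.

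The share of Wrap53 reads that ended early was 64.2% in U1 AMO replicate 1 (95% Wilson interval 61.5 to 66.8) and 36.4% in replicate 2 (35.2 to 37.6). With the scrambled AMO it was 0.210% (0.0576 to 0.763) and 0.283% (0.143 to 0.557). In untreated cells it was 0.690% (0.386 to 1.23) and 0.190% (0.0738 to 0.487). The group means were 50.3% ± 19.6 under U1 AMO, 0.246% ± 0.0515 in the scrambled controls and 0.440% ± 0.353 without any AMO (SD, n = 2). The U1 AMO libraries were far apart from each other but well above the other 4, which overlapped.

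The full 3′ end of Wrap53, at chr11:69375253-69375266 with the hexamer TATAAA, was not lower in both runs. With its 1 weak neighbour it had 28.7 and 65.7 CPM under U1 AMO, 35.4 and 45.3 in the scrambled controls and 41.1 and 34.8 without any AMO. The ratio of U1 AMO over scrambled control was 0.811 for replicate 1 and 1.45 for replicate 2, each pair in its own run, so its direction differed between runs. Its log2 ratio of group means, 0.23, lay at the 88.4th percentile of clusters of at least 10 CPM, and at percentiles 34.4 and 95.1 within the runs. Summed over the whole window, Wrap53 reads were 2.26 and 2.27 times as high under U1 AMO in the runs.

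**Figure D2:**
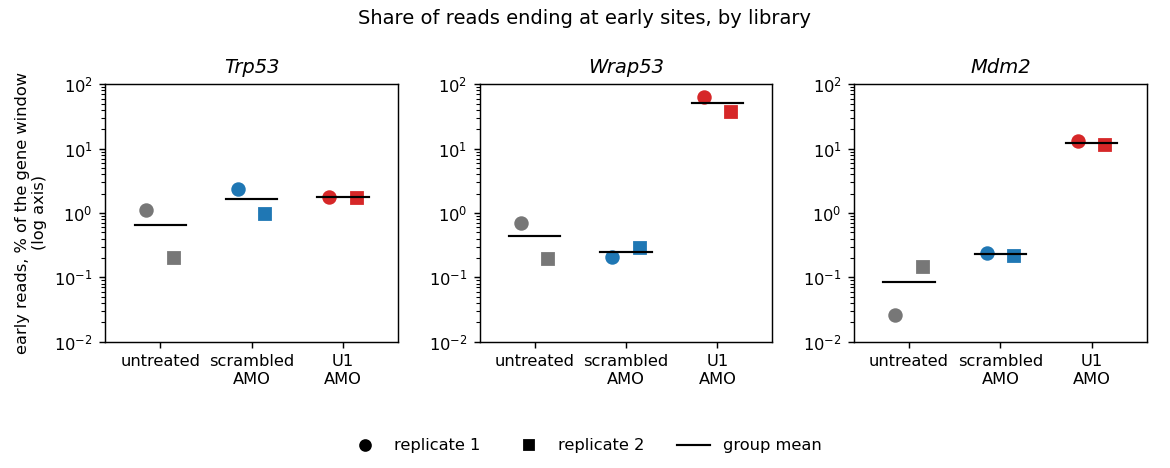
Percent of the reads of each gene window that ended at early sites (log axis), per library, for 3 groups of 2 libraries. Points are libraries (circles replicate 1, squares replicate 2) and bars are group means. Both U1 AMO libraries lie above the other 4 at Wrap53 (64.2% and 36.4%) and Mdm2 (13.1% and 11.3%) but not at Trp53 (1.79% and 1.69%).

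At Mdm2, the negative regulator of p53, early cleavage under U1 AMO was spread over many sites. Early sites took 13.1% of the reads in U1 AMO replicate 1 (95% Wilson interval 12.4 to 14.0) and 11.3% in replicate 2 (10.8 to 11.8). They took 0.239% (0.134 to 0.428) and 0.217% (0.124 to 0.380) in the scrambled controls, and 0.0261% (0.00462 to 0.148) and 0.144% (0.0887 to 0.234) without any AMO. The group means were 12.2% ± 1.30, 0.228% ± 0.0156 and 0.0851% ± 0.0834 (SD, n = 2). The U1 AMO libraries lay close together and above the other 4. The order of the scrambled and untreated libraries rested on single reads: with at least 2 reads a position, the shares were 0.0659% and 0.127% in the scrambled controls and 0% and 0.144% without any AMO. In untreated replicate 2 all 16 early reads came from 1 position, listed in no other library.

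Of the 52 early Mdm2 clusters, 31 and 41 had a read in the U1 AMO libraries, 6 and 8 in the scrambled controls, and 1 in each untreated library. U1 AMO replicate 1 thus had more of them than any control library, with the fewest reads of all 6. Over the whole series, though, untreated replicate 2 listed fewer distinct positions than it did (500472 against 683584). The 22 clusters seen in both U1 AMO libraries stretched from 3312 to 22500 nt upstream of the full 3′ end, and 15 of these had no read in any of the other 4 libraries. Without a gene annotation on mm9, whether the farthest of them lie inside the Mdm2 gene was not checked.

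The strongest early Mdm2 site, chr10:117142018-117142069, lay 16088 nt upstream of the full 3′ end and held 56.6% and 46.6% of the early reads in the U1 AMO libraries. It had 33.1 and 15.3 CPM under U1 AMO, 0.112 and 0.0321 in the scrambled controls, and no reads without any AMO. Pooled over libraries this was 341 times the scrambled level (146 to 1051, 95% counting interval). This site was 52 nt wide, against 11 to 33 nt for the other 5 early Mdm2 sites of at least 1 CPM, and its hexamer was the A-rich TAAAAA. Its strongest position, 117142039, was the same in both U1 AMO libraries.

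Going downstream, 3 further sites followed. The site at chr10:117139915-117139928, 13967 nt upstream and with the hexamer AATACA, had 8.82 and 6.25 CPM under U1 AMO and no reads in the other 4 libraries. Its pooled level was at least 202-fold higher than in the scrambled controls, taking a floor of 3 counts over that group. The site at chr10:117137244-117137254 (11298 nt, ATTAAA) had 5.90 and 4.51 CPM under U1 AMO and 0.149 and 0.0161 in the scrambled controls, a ratio of 85.6 (36.3 to 265). It had no reads without any AMO. At chr10:117135546-117135570 (9612 nt, AATAAA) the U1 AMO libraries had 1.46 and 1.48 CPM and the other 4 had no reads, at least 43.9-fold higher against the same floor.

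Nearer to the start of the gene were 2 sites with AATAAA. The site at chr10:117144673-117144693, 18728 nt upstream, had 2.16 and 0.880 CPM under U1 AMO, 0 and 0.0161 in the scrambled controls and no untreated reads. Its ratio of pooled levels rested on 1 scrambled AMO read and was 103 (18.0 to 4107). The site at chr10:117144392-117144424 had 1.02 and 1.40 CPM under U1 AMO and no reads elsewhere, at least 39.1-fold higher. Ordered by mean level, the 3 strongest early Mdm2 sites (24.2 ± 12.5, 7.54 ± 1.82 and 5.20 ± 0.989 CPM, SD, n = 2) had U1 AMO values that did not overlap with one another. Among the other 3 (1.21 ± 0.271 to 1.52 ± 0.904 CPM), the values of the site 18728 nt upstream overlapped those of both others, which did not overlap each other.

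**Figure D3:**
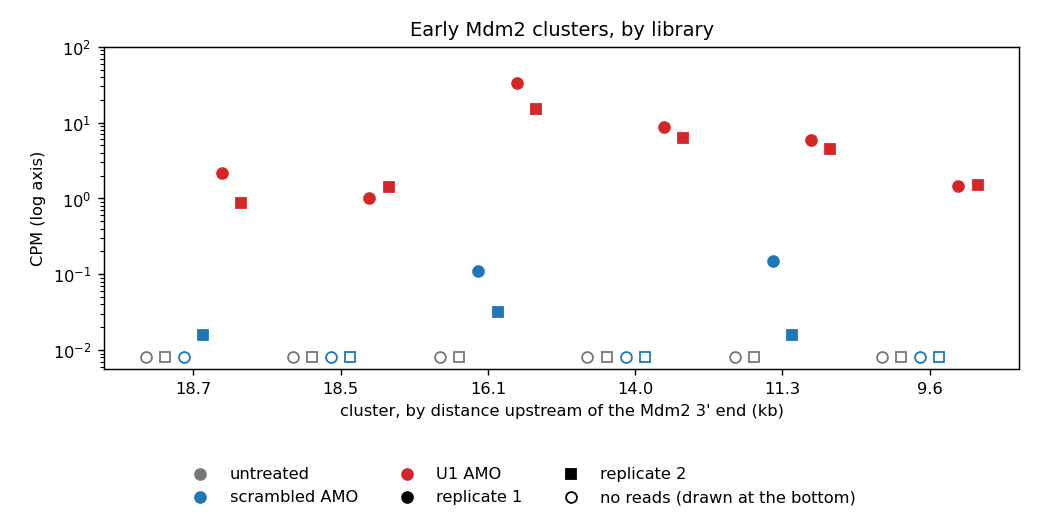
CPM (log axis) of the 6 early Mdm2 sites with a mean of at least 1 CPM in any group, per library, placed by their distance upstream of the Mdm2 full 3′ end. Open markers on the lowest line are libraries without reads. Every U1 AMO library is at 0.880 CPM or more at each site, and no other library passes 0.149 CPM.

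The full 3′ end of Mdm2 was also higher under U1 AMO, by less than the early sites. Its strongest cluster, chr10:117125922-117125967 with AATAAA, had 368.0 and 241.5 CPM under U1 AMO, 164.6 and 82.8 in the scrambled controls and 96.5 and 180.2 without any AMO. Both U1 AMO libraries were above the other 4, and the controls overlapped. Summed over all clusters of the full 3′ end, the ratio of U1 AMO over scrambled control was 2.26 and 2.92 within the runs. The strongest cluster's log2 ratio of group means was 1.30, which lay at the 98.8th percentile of 10350 clusters of at least 10 CPM in the series, whose median was -0.14. Within the runs it lay at the 98.4th and 98.9th percentile. For early sites the ratios were 143 and 171.

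Within 2000 nt upstream of this cluster Mdm2 had 14 further clusters, which together had 17.6 and 16.2 CPM under U1 AMO, 6.00 and 5.53 in the scrambled controls and 2.62 and 3.19 without any AMO. The 3 groups did not overlap. As a share of the reads at the full 3′ end these clusters took 4.56% and 6.27% under U1 AMO, 3.51% and 6.25% in the scrambled controls and 2.64% and 1.74% without any AMO. By share the AMO groups overlapped, and both lay above untreated cells. The largest of the 14, chr10:117127091-117127176 (CATAAA), had 7.55 and 7.79 CPM under U1 AMO, 3.09 and 2.83 in the scrambled controls and 1.40 and 1.44 without any AMO. At chr10:117126009-117126035 (AATAAA), 77 nt upstream of the strongest position, the values were 6.22 and 5.33, 1.19 and 1.72, and 0.882 and 0.612 CPM.

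Trp53 showed no such arrangement. Early sites took 1.79% of its reads in U1 AMO replicate 1 (95% Wilson interval 1.47 to 2.16) and 1.69% in replicate 2 (1.48 to 1.94). They took 2.35% (1.99 to 2.78) and 0.972% (0.835 to 1.13) in the scrambled controls and 1.12% (0.947 to 1.32) and 0.200% (0.156 to 0.256) without any AMO. The U1 AMO values lay between those of the scrambled AMO, and the difference of means was 0.0747 percentage points, with an SD of 0.980. Without scrambled replicate 2 the difference was -0.617 points. In CPM the early Trp53 sites together were 1.30 and 1.33 times as high under U1 AMO as in the scrambled control within the runs.

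Unlike the strongest early sites of the other genes, the strongest early Trp53 site was already present without any AMO. At chr11:69397319-69397341, 8046 nt upstream of the full 3′ end and with AATAAA, there were 3.19 and 0.976 CPM without any AMO, 4.17 and 1.98 in the scrambled controls and 5.27 and 2.61 under U1 AMO. The 3 groups overlapped. Position 69397328 was the strongest in all 6 libraries. This site made up 73.3% to 95.2% of the early Trp53 reads of a library. The next, chr11:69395835-69395856 (AATAAA), had 0.508 and 0.293 CPM under U1 AMO, 0.298 and 0.337 in the scrambled controls and 0.233 and 0 without any AMO. Of the 18 early Trp53 clusters, 6 had reads in both U1 AMO libraries, and all 6 also had reads in a control library.

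The full 3′ end of Trp53, chr11:69405360-69405393 with AATAAA, was the most sharply placed of the 3. Its position 69405374 held 90.3% to 97.1% of the reads in every library, against 30.4% to 39.5% for the strongest position of the Mdm2 end and 24.1% to 31.4% for that of Wrap53. Summed over its clusters it had 316.6 and 512.2 CPM without any AMO, 208.5 and 271.7 in the scrambled controls and 359.8 and 206.8 under U1 AMO. The scrambled AMO libraries were below both untreated ones, a log2 ratio of -0.79 with an SD of 0.55. It was -0.40 when untreated replicate 2 was left out. For the strongest cluster the ratio of scrambled AMO over untreated lay at the 13.7th percentile of 10339 clusters of at least 10 CPM. Their 5th percentile was -1.19, so a fall of this size was not unusual among strong clusters. The ratio of U1 AMO over scrambled control was 1.73 for replicate 1 and 0.761 for replicate 2, each pair in its own run, so the runs went opposite ways. Among clusters of at least 10 CPM these were percentiles 97.0 and 8.64. Trp53 has a pseudogene copy, Trp53-ps, and how reads that match both were placed is not stated in the labels.

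**Figure D4:**
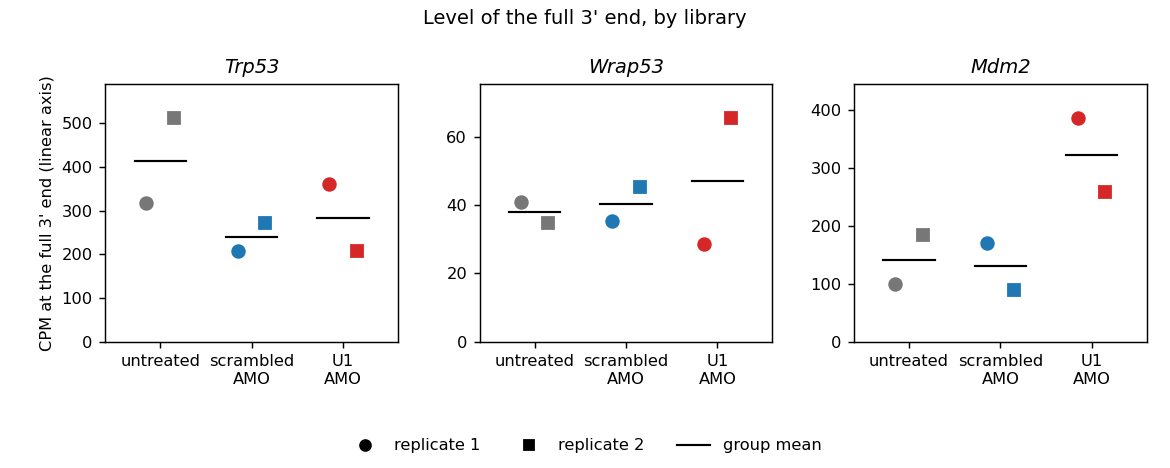
CPM at the full 3′ end of each gene (linear axes from 0, scaled per gene), per library, in 3 groups of 2 libraries. Circles are replicate 1, squares replicate 2 and bars group means. At Mdm2 both U1 AMO libraries (385.9 and 258.1 CPM) lie above the other 4, while at Trp53 and Wrap53 the U1 AMO libraries lie on both sides of the scrambled AMO libraries.

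The Trp53 and Wrap53 windows overlap at chr11:69393500-69394500, and few reads were listed there. The cluster chr11:69394381-69394384 on the plus strand had 5 reads, 1 in scrambled replicate 2 and 4 in U1 AMO replicate 2. On the minus strand chr11:69394387-69394390 had 5 reads, 3 in untreated replicate 1 and 1 each in scrambled replicate 1 and U1 AMO replicate 2. The levels were too low to compare between groups.

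In a fit across the series (edgeR quasi-likelihood test, Benjamini-Hochberg adjusted p under 0.05), 21 of the 111 clusters passed the filter on low counts. Those that passed include clusters kept only for their U1 AMO level. Of the 21, 3 were called higher under U1 AMO than in the scrambled controls, where 0.666% of all 80049 clusters were. They were the sites at chr11:69391758-69391782 (Wrap53), chr10:117142018-117142069 and chr10:117139915-117139928 (Mdm2). Without scrambled replicate 2 none was called (0% of all clusters), and DESeq2 called 9, beside 3.86% of all clusters. Against untreated cells 10 were called higher, 9 of Mdm2 and 1 of Wrap53, beside 4.39% of all clusters, and none lower (0.505%). The strongest cluster of the Mdm2 full 3′ end was not among those called by this edgeR test. Its adjusted p was 0.29 against the scrambled controls and 0.18 against untreated cells. It was called higher than in the scrambled controls once replicate numbers were blocked in the AMO libraries. Between scrambled AMO and untreated cells edgeR called none of the 21 in either direction (0% of all clusters), with 4 at an unadjusted p under 0.05 (13.1% of all clusters). DESeq2 called 1 of the 21 higher, beside 1.71% of all clusters, and these counts show nothing particular to the 3 genes. When replicate numbers were blocked in the 4 AMO libraries, 15 were called higher, 13 of Mdm2 and 2 of Wrap53, where 13.4% of 68821 clusters were, and none lower (2.29%). None of the 3 Trp53 clusters tested was called in these fits by edgeR or DESeq2, and none had an unadjusted p under 0.05. Without untreated replicate 1, where 4 Trp53 clusters were tested, 1 was called higher under U1 AMO than without any AMO, beside 6.95% of all clusters. The U1 AMO level was above that of both scrambled AMO libraries in both U1 AMO libraries at 17 of the 21, beside 20.8% of all clusters. Since the genes were chosen on these contrasts, the counts are not evidence for them.

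Among listed clusters, common poly(A) signals were about as frequent at the early sites as elsewhere. Listed positions carried 36 kinds of hexamer, 6 to 40 nt away. Sites with none of these may not be listed, so neither share covers them. Of 24 early clusters with at least 10 reads, 14 had AATAAA or ATTAAA at the strongest position (58.3%), against 60.0% of the 165807 clusters of the series with as many reads outside chromosome M. AATAAA alone was at 12 of the 24 (50%) and at 44.3% of all. Of the 12 clusters at the full 3′ ends with as many reads, 4 had one of these signals (33.3%). Mdm2 gave 10 of the 12, and 3 of its 10 had one, so this share mainly describes clusters around the Mdm2 end. The strongest clusters of Trp53 and Mdm2 had AATAAA, and that of Wrap53 had TATAAA.

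Clusters elsewhere with a similar pattern over the 6 libraries were ranked by Pearson's r of log2(CPM + 0.1) among 29440 clusters of at least 1 CPM. Most like the early Wrap53 site was chr8:75248451-75248474 (plus), with 6.92 and 5.06 CPM in the U1 AMO libraries and 0 to 0.0161 elsewhere. Most like the strongest early Mdm2 site was chr13:119174180-119174199 (minus), with 46.7 and 20.6 CPM. Above r = 0.99 with these 2 sites were 392 and 445 of the 29440 clusters, against 9 for the early Trp53 site. Clusters read almost only under U1 AMO reach a high r with one another by the measure itself, so these counts are not comparable. For the full 3′ ends the highest r was 0.988 for Trp53, at chr15:79616777-79616794 (minus), 0.974 for Wrap53, at chr9:114417365-114417403 (minus), and 0.992 for Mdm2, at chr2:75716010-75716025 (plus). With 6 libraries, which share runs and depth, such values only describe.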

How the data were processed

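The deposited files list, for each library, stranded cleavage positions with a read count, a hexamer of the poly(A) signal type and its distance. Cutadapt, Bowtie and the build mm9 are named, per the submitters' processing notes. For their versions, the filter on positions and reads with several matches: not given in the sources used here. The counts were deposited per library and not normalized. From them, positions of the 6 libraries at most 24 nt apart were joined, reads summed per cluster, and CPM computed on library totals.

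All clusters were fitted together with edgeR 4.0.16 (R 4.3.3; quasi-likelihood, TMM, filterByExpr, 3 groups in 6 libraries), a step tested on simulated data. DESeq2 1.42.0 was an alternative. Other values came from Python 3.11.15 with pandas 2.3.3. With 2 libraries a group, p-values set the difference between groups against a spread estimated from the libraries of all 3 groups and partly shared across clusters. The series' text calls these libraries biological replicates. The main fit did not use the pairing of AMO libraries by run.

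Members, lists and rules were chosen with earlier results of these data known. Sites named are each strongest untreated cluster and early clusters of at least 1 CPM in any group, or the 2 highest where fewer reach it. Other sites named here were chosen after their values were seen. Lists of p53 pathway genes and of cell type markers were not analysed here, since no gene positions on mm9 were at hand. Across 29447 clusters the deviations of scrambled AMO and U1 AMO libraries correlated at r = 0.78 within a replicate number. Read names place each such pair in one run, so the number pairs these libraries. Deviations of the untreated libraries correlated at r = -0.42 with scrambled AMO and -0.37 with U1 AMO. The number therefore does not pair untreated libraries with the AMO libraries.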

Additional observations from a re-analysis of the deposited data

Results flagged for a closer look

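A cluster on the strand opposite to Mdm2, outside the comparisons above, had more reads with the U1 AMO than in any other library. It lay at chr10:117148239-117148261 on the plus strand, 22300 nt upstream of the Mdm2 full 3′ end, with the hexamer AATAAA 23 nt from its strongest position. It had 20 and 23 reads in the U1 AMO libraries (1.27 and 0.397 CPM), 3 and 2 with the scrambled AMO (0.112 and 0.0321 CPM) and 3 and 1 in untreated cells (0.0778 and 0.0165 CPM). The opposite strands of the other windows held few reads: at most 3 in a library for Trp53 and 17 for Wrap53.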

How the results depend on the processing

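For the Wrap53 and Mdm2 early shares and early levels, U1 AMO against scrambled AMO, every alternative run kept the direction and moved the value by less than 1 SD. That covered other limits, joining distances, a minimum of 2 reads, other scalings and each library left out. With 2 libraries a group, leaving out a library cannot move a share by 1 SD, so the size of that move is no check. Leaving out a library gave 36.2 to 63.9 percentage points for the Wrap53 share, 11.1 to 12.9 for the Mdm2 share, and log2 ratios of 0.92 to 1.86 for the Mdm2 full 3′ end. Differences within the spread changed sign. The Trp53 early share difference ran from -0.617 to 0.766 points (negative without scrambled AMO replicate 2). Its early level ran from -0.11 to 0.92 and its full 3′ end from -0.22 to 0.58 in log2 (both negative without U1 AMO replicate 1). The Wrap53 full 3′ end ran from -0.49 to 0.70 (negative without U1 AMO replicate 2).

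Between scrambled AMO and untreated cells, the Wrap53 early share difference ran from -0.443 to 0.0567 points (positive without untreated replicate 1). In log2 the Trp53 full 3′ end ran from -1.09 (without untreated replicate 1) to -0.40 (without untreated replicate 2). The Wrap53 full 3′ end ran from -0.10 to 0.26 (negative without scrambled AMO replicate 2 or untreated replicate 2) and that of Mdm2 from -0.68 to 0.39 (positive without either of these). The Mdm2 early share difference of 0.143 points became 1.81 with a limit of 1000 nt, which counts part of the tandem sites as early, and 0.0246 with at least 2 reads a position. The cause of these changes was otherwise not tested.

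The 3 member clusters called between U1 AMO and scrambled AMO (0.666% of all clusters) became 8 when no filter on low counts was used (0.311%), 9 with DESeq2 (3.86%), 7 when just the 4 AMO libraries were fitted (3.76%), 15 with a replicate block in the 4 AMO libraries (13.4%) and 0 with a replicate block in all 6 (0%). The block in all 6 also ties each untreated library to AMO libraries of another run, a pairing that the read names do not show. Leaving out a library gave 0 (scrambled AMO replicate 2; 0%) to 8 (untreated replicate 1, 2.48%, or 2, 3.43%), with 6 without U1 AMO replicate 1 (1.06%). Against untreated cells the 10 (4.39%) became 5 with the 4 libraries alone (1.93%) and 0 with the replicate block in all 6 (0%), and leaving out a library gave 4 (untreated replicate 2, 2%, or U1 AMO replicate 2, 1.16%) to 12 (untreated replicate 1, 6.95%). DESeq2 called 1 between scrambled AMO and untreated cells (1.71%), where edgeR called 0. Where edgeR called 0, clusters at an unadjusted p under 0.05 numbered 13 in both comparisons with the replicate block in all 6 libraries (7.09% of all clusters against scrambled AMO, 20.9% against untreated cells) and 9 without scrambled AMO replicate 2 (5.05%). A fit without a library takes the lone sample left to vary like the other groups. The mean of log2 ratios within replicate numbers (replicate block) was 8.81 for the early level of Wrap53, 7.28 for Mdm2 and 0.40 for Trp53. The depth of U1 AMO replicate 1 limits what could be seen at sites of a few reads.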

Other observations

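Some clusters in the windows were read in a single library at a single position. In untreated replicate 2 the position chr10:117132565 on the Mdm2 strand, 6614 nt upstream of the full 3′ end and with AATAAA, had 16 reads and none in the other 5 libraries. In the same library chr11:69404102 on the Trp53 strand, 1272 nt upstream of the full 3′ end and with AAGAAA, had 9 reads and none elsewhere.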
